A study of Mus musculus with 18 samples.

Results

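The genes described here encode 7 transcription factors, other than those of the Sox family, that direct the oligodendrocyte lineage: Olig1, Olig2, Nkx2-2, Nkx6-2, Myrf, Zfp488 and Zeb2. They were chosen by name from the 54279 gene entries of each of 2 deposited tables, and all 7 passed the filter on low values in both tables. RNA-seq was performed on mouse oligodendrocyte progenitor cells (OPCs) derived in culture from epiblast stem cells and edited by CRISPR with either a control or a Vhl guide. The Vhl protein tags the oxygen-sensitive part of hypoxia-inducible factor (HIF) for destruction in normal oxygen. In the first experiment, control and Vhl cells were lysed without treatment. In the second, control and Vhl cells were kept for 14 hours in medium containing DMSO, the solvent, or 300 nM AZD8330, which blocks MEK1 and MEK2, the kinases that activate ERK. Cells of all 6 groups grew in DMEM F12 with N2max, B27 and the growth factors Fgf2 and Pdgfa. Each group held 3 libraries, lettered A to C. The labels do not say whether these came from separate cultures or edited clones, so the spread that p-values measure here is that between samples and may be technical.

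The lineage factors act in sequence. Olig2 and Olig1 are basic helix-loop-helix (bHLH) proteins that pair with E proteins such as Tcf4 and Tcf12 and bind the E-box, and Olig2 specifies the lineage in the ventral neural tube. The homeodomain proteins Nkx2-2 and Nkx6-2 act in progenitors and again as cells mature, and Zfp488, a zinc finger protein, works with Olig2 to promote differentiation. Zeb2 (Sip1) lifts the block that BMP and SMAD signalling place on differentiation, and Myrf, a membrane-bound factor that cleaves itself to release its DNA-binding part, switches on myelin genes in post-mitotic oligodendrocytes.

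Promoter sequences are shown for 3 of the members that differed between Vhl and control cells in the drug experiment: Nkx6-2 and Nkx2-2, which were higher in Vhl cells, and Zfp488, which was lower there under AZD8330. Each, written 5′ to 3′, is the 250 bases before the RefSeq start in build GRCm38.p6, on the minus strand, with every E-box (CANNTG, the same on both strands) in capitals. RefSeq entries matched 5 of the 7 members, with 8 windows in all; Olig1 and Myrf had none. The windows lie at chr7:139582798-139583047 for Nkx6-2, chr2:147186403-147186652 for Nkx2-2 and chr14:33978765-33979014 for Zfp488.
Nkx6-2: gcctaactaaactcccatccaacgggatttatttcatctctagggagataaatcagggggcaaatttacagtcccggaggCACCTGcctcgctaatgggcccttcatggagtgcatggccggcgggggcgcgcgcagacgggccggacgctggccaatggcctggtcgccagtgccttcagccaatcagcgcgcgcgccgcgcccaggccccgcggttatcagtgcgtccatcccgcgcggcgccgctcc
Nkx2-2: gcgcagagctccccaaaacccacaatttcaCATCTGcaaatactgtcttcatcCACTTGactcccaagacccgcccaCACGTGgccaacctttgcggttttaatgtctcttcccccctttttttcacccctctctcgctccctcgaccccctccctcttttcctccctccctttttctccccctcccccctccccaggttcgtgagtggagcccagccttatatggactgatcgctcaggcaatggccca
Zfp488: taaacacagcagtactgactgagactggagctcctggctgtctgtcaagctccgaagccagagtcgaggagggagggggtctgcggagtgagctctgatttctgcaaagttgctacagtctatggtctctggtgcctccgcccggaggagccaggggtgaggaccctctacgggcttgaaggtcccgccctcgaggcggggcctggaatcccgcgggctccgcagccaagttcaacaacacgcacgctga
The Nkx6-2 window held 1 E-box and the Nkx2-2 window 3, and none stood in the window of Zfp488, of Olig2 (chr16:91225300-91225549, plus strand) or in any of the 4 windows of Zeb2. Of all 32851 RefSeq windows of this length, 66.2% held an E-box. The core of the HIF site, ACGTG on either strand, was found only in the Nkx2-2 window among the members, in 16.6% of all windows. Its 2 matches are the 2 strands of the palindromic E-box CACGTG. The ETS core GGAAG, on either strand, stood in the window of Nkx2-2 once and in each Zeb2 window between 1 and 3 times, and in 64.1% of all windows. The windows of Nkx6-2, Zfp488 and Nkx2-2 were 65.2%, 61.6% and 56.4% G and C, against a median of 52.4% over all windows. These matches describe the letters alone.

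Untreated libraries held 14594148 to 21160250 estimated counts, and those of the drug experiment held 12391077 to 16349676. Values below are CPM, that is, counts scaled by the effective library size; a gene rose or fell where edgeR's quasi-likelihood test gave an adjusted p under 0.05 over all tested genes. The untreated libraries spread more within groups (common dispersion 0.144) than the drug libraries (0.0161). In bulk RNA, fewer cells of a type and less RNA per cell cannot be told apart. The mRNA of Vhl itself was 117, 121 and 125 CPM in untreated control libraries and 87.1, 89.9 and 73.9 CPM in Vhl libraries, a log2 difference of -0.53 ± 0.16 (SE) that was not called (adjusted p = 0.357 in edgeR). It was lower in Vhl cells under DMSO (-0.20 ± 0.05, adjusted p = 0.00778) and under AZD8330 (-0.46 ± 0.05, adjusted p = 1.01e-05, both by edgeR). With AZD8330 the Vhl mRNA rose in control cells, from 106 to 138 CPM (0.38 ± 0.05, adjusted p = 1.48e-05, edgeR). Its change in Vhl cells, from 92.2 to 99.9 CPM, was not called (0.12 ± 0.05, adjusted p = 0.0682, edgeR). The difference between these drug effects was -0.27 ± 0.07 (adjusted p = 0.0242, edgeR). Of 6 tested HIF targets all 6 rose in Vhl cells under DMSO and under AZD8330; in untreated cells 0 of 7 were called, at a median log2 difference of 3.99. The 2 untreated A libraries differed from the others in Sox10, which was at 526 CPM in control A against 87.8 and 87.5, and at 326 CPM in Vhl A against 15.3 and 16.0. Vhl A also had lower HIF targets than Vhl B and C, with Vegfa at 38.7 CPM against 407 and 642 and Bnip3 at 160 CPM against 512 and 516. Of 13 tested genes of ERK output, 10 fell and 2 rose with AZD8330 in control cells (median -2.88). In Vhl cells, 8 fell and 2 rose (median -1.69). Of all tested genes, 31.7% fell and 29.1% rose with the drug in control cells, and 25.6% fell and 25.8% rose in Vhl cells. Under AZD8330, 10 of the 13 ERK output genes were higher in Vhl than in control cells and 0 lower (median 0.62). A called positive difference of the drug effect was found for 4 and a negative one for 0. Over all genes the shares were 16% higher and 14% lower, and 7.81% with a positive and 4.96% with a negative difference. The oligodendrocyte lineage markers Pdgfra, Cspg4, Sox10, Ptprz1, Cnp and Mbp were all detected in every group, the 5 pluripotency markers summed to at most 23.7 CPM (Esrrb, the highest, averaged 18.9 CPM in control DMSO cells, while Pou5f1 and Zfp42 were at 0 in every group), and the summed microglia markers reached at most 1.97 CPM.

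The members differed widely in level. Per kb of exon (GENCODE M21 gene models of GRCm38), Olig1 was highest in all 6 groups, with group means of 1308 to 1518 CPM per kb, and Olig2 was next with 364 to 591. Nkx2-2 followed at 18.8 to 36.1 CPM per kb, and the 3 libraries of each group kept these members apart from each other and from the rest. Zeb2 (2.83 to 6.98), Nkx6-2 (1.57 to 21.7) and Zfp488 (1.30 to 5.22 CPM per kb) lay close together. The order among them depended on the group: Nkx6-2 and Zfp488 overlapped under DMSO in control cells, whereas under AZD8330 in Vhl cells Nkx6-2 at 21.7 ± 1.55 CPM per kb stood above Zeb2 at 4.65 ± 0.20 and Zfp488 at 1.97 ± 0.09 (SD, n = 3). Myrf, the factor of myelinating cells, was last in every group at 0.110 to 1.37 CPM per kb. With the longest transcript as the length in place of all exons, Zeb2 moved to 6.19 to 15.3 CPM per kb, which placed it above Nkx6-2 in Vhl DMSO cells. The drug libraries of Myrf held between 3.40 and 83.3 estimated counts, so that its values are the least precise.

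**Figure D1:**
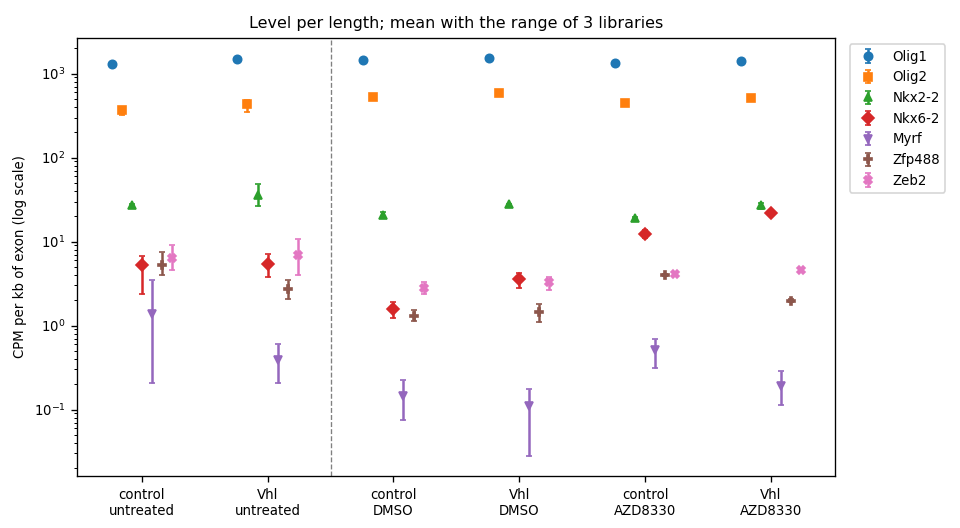
Level of each lineage factor gene in CPM per kb of exon (log scale) in the 6 groups; symbols are means and bars the range of 3 libraries. The tables left and right of the dashed line were scaled separately, and Olig1, Olig2 and Nkx2-2 keep the same order in every group while Nkx6-2 changes place.

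In untreated cells, none of the 7 members rose or fell between Vhl and control. Over all 13569 genes tested, 0.0147% rose and 0% fell by edgeR. In data simulated with this spread, only 1 of 59 changes of 2-fold was recovered, so changes of that size are mostly missed. At an unadjusted p under 0.05 the count was 1 of 7 members (Zfp488) and 1267 genes, and DESeq2 called 355 genes. Without Vhl A edgeR called 439 genes, and without control A it called 0. In control A the Myrf level was 30.1 CPM against 1.76 and 3.19 in control B and C, the Zfp488 level 32.2 against 17.1 and 18.1, and the Nkx6-2 level 4.58 against 12.7 and 12.8. In the untreated Vhl libraries A, B and C, Zfp488 was at 14.9, 8.94 and 10.97 CPM, below all 3 control libraries. The log2 difference for Zfp488 was -0.95 ± 0.34 (95% interval -1.75 to -0.16, adjusted p = 0.448 in edgeR). Without both A libraries it was -0.83 ± 0.20 (adjusted p = 0.0991), and the difference for Myrf turned from -1.81 ± 1.05 to 0.48 ± 0.65, while 0 members and 606 genes were called. Zeb2 varied within both groups, from 92.2 to 180 CPM in control and from 79.4 to 216 CPM in Vhl libraries, and Nkx2-2 reached 141 CPM in Vhl C while the other 5 libraries lay between 75.8 and 94.6. Olig1 was higher in all 3 Vhl libraries (3116 to 3290 CPM) than in the control libraries (2725 to 2954), a log2 difference of 0.18 with an interval of -0.27 to 0.63.

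**Figure D2:**
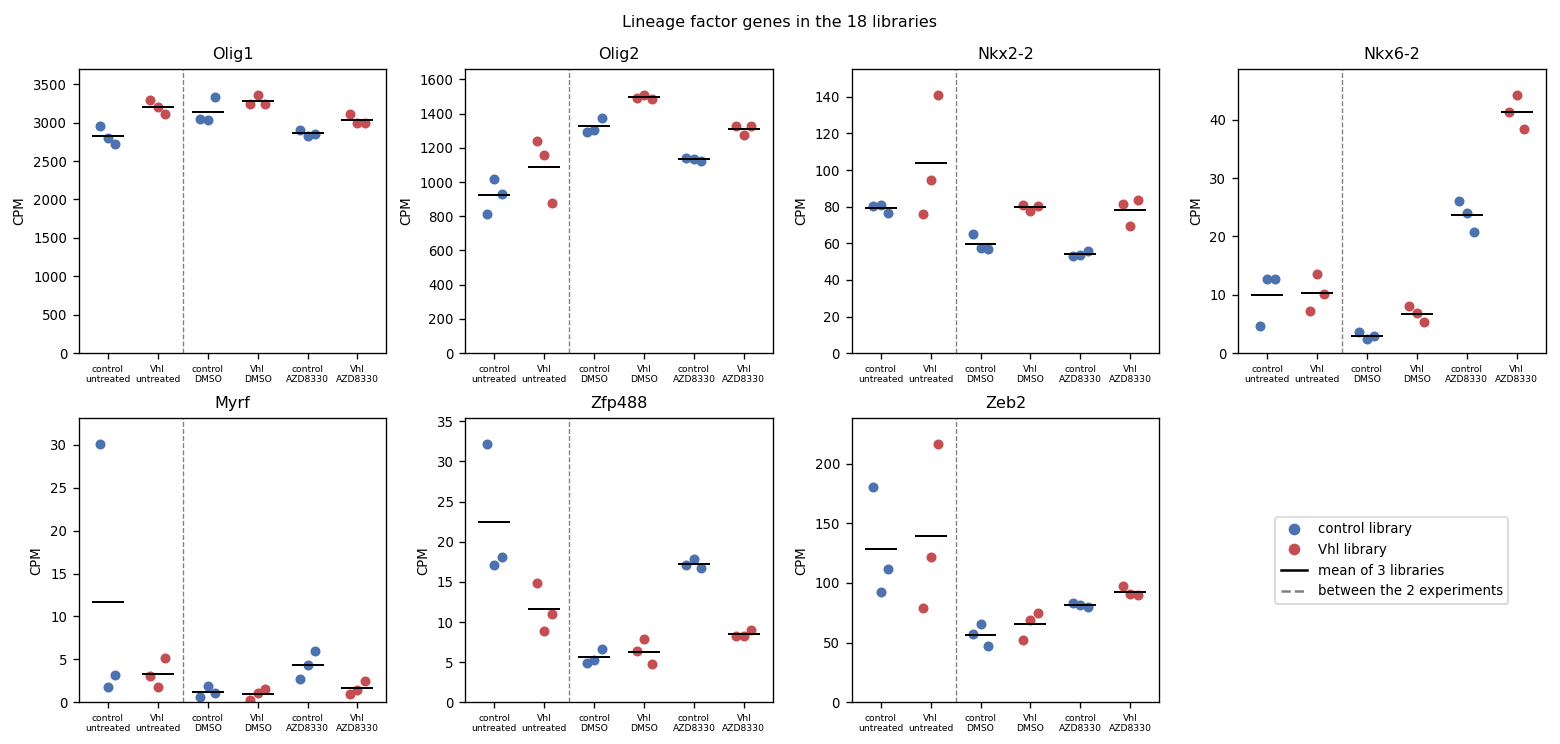
CPM of each of the 7 genes in the 18 libraries; points are libraries, lines are means of 3, and the dashed line parts the 2 separately scaled experiments. Nkx6-2 is highest in the Vhl AZD8330 libraries, within the drug experiment Zfp488 is highest in the control AZD8330 libraries, and untreated control A stands above the other untreated libraries for Myrf and Zfp488.

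AZD8330 raised Nkx6-2 and Zeb2 in both genotypes and Myrf and Zfp488 in control cells, and it lowered Olig1 and Olig2 slightly. In control cells 4 of the 7 members rose and 2 fell, and in Vhl cells 2 rose and 2 fell. The drug changed most of the transcriptome: of 13460 genes, 29.1% rose and 31.7% fell in control cells, and 25.8% rose and 25.6% fell in Vhl cells, so in Vhl cells the shares of members called lay near the background. The median log2 change of the 7 members was 0.53 in control and 0.42 in Vhl cells, against -0.01 and 0.03 for all genes. The comparisons of drug and genotype below share groups of libraries.

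Nkx6-2 (chr7:139579376-139582797, minus strand) showed the largest response of the members. Under DMSO it was at 3.62, 2.34 and 2.998 CPM in control libraries and at 8.12, 6.88 and 5.28 CPM in Vhl libraries. Under AZD8330 it was at 26.1, 24.0 and 20.8 CPM in control and at 41.4, 44.3 and 38.4 CPM in Vhl libraries. No 2 of these groups overlapped, and in the drug experiment both the drug and the edit went with a higher level. With the drug it rose by a log2 value of 2.98 ± 0.18 in control cells (7.89-fold, adjusted p = 9.62e-09) and of 2.61 ± 0.16 in Vhl cells (6.12-fold, adjusted p = 2.46e-08), both by edgeR. By the size of its log2 change it ranked 304 of 13460 genes in control cells and 361 in Vhl cells. In Vhl against control cells it rose by 1.17 ± 0.19 under DMSO (adjusted p = 0.000395) and by 0.81 ± 0.15 under AZD8330 (adjusted p = 0.00102, edgeR). In untreated cells its log2 difference was 0.03 ± 0.45 (95% interval -1.03 to 1.09), which was not called. The difference between the drug effects of Vhl and control cells was -0.37 ± 0.24, with a 95% interval of -0.88 to 0.15 (adjusted p = 0.374, edgeR), so it was not resolved whether the effects add on the log scale. The mean in Vhl cells with AZD8330 was 13.8 times the mean in control cells with DMSO.

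Nkx6-2 shares 246 exonic bases with Inpp5a on the opposite strand, and 11.6% of its stretches of 31 bases are found in other genes too. Inpp5a, an inositol phosphatase gene, also rose with AZD8330, from 26.3 to 64.5 CPM in control cells (log2 1.30 ± 0.06, adjusted p = 4.00e-10) and from 24.4 to 62.1 CPM in Vhl cells (1.34 ± 0.06, adjusted p = 5.25e-10, edgeR). It did not rise in Vhl against control cells, where its log2 differences were -0.10 ± 0.06 under DMSO and -0.06 ± 0.05 under AZD8330. No source used here gives the strandedness of the libraries, so reads from the shared bases cannot be told apart, and the part of Inpp5a in the drug effect on Nkx6-2 was not tested.

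Zfp488 (chr14:33967070-33978764, minus strand) was the member whose drug response depended on the edit. It was at 4.89, 5.28 and 6.64 CPM in control libraries under DMSO and at 17.1, 17.8 and 16.8 CPM under AZD8330. In Vhl libraries it was at 6.37, 7.84 and 4.75 CPM under DMSO and at 8.21, 8.31 and 8.95 CPM under AZD8330. The DMSO groups overlapped, and the 2 AZD8330 groups did not. Zfp488 rose with AZD8330 by a log2 value of 1.62 ± 0.18 in control cells (3.08-fold, adjusted p = 3.72e-06, edgeR). In Vhl cells its change was 0.42 ± 0.18, with a 95% interval of 0.04 to 0.81, and did not pass the threshold (adjusted p = 0.0642, edgeR), though it was called when Vhl DMSO B was left out. The difference between the 2 drug effects was -1.20 ± 0.25 (95% interval -1.74 to -0.66, adjusted p = 0.00747, edgeR). It was the only one of 7 members with a called difference, against 7.81% of genes with a positive and 4.96% with a negative one, and it ranked 533 of 13460 by size. Total-count scaling moved the share of positive calls over all genes from 61.2% (1051 against 667) to 44.0% (683 against 870), and the Zfp488 call held there and in all 17 alternatives computed for it. Of 13 tested ERK output genes, 4 had a called difference of the drug effect as well, each of them positive. Among these were Dusp6 at 0.76 ± 0.07, Etv4 at 0.59 ± 0.10 and Spry1 at 0.57 ± 0.05, each falling less in Vhl cells. The part of ERK output genes in the Zfp488 difference was not tested. Of the stretches of 31 bases in Zfp488, 18.2% occur in other genes, among them 4930533N22Rik, so part of its counts may have been shared between genes.

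Myrf (chr19:10208272-10240748, minus strand) was the member with the fewest counts. It was at 0.635, 1.94 and 1.14 CPM in control and at 0.239, 1.09 and 1.51 CPM in Vhl libraries under DMSO. With AZD8330 it was at 2.66, 4.37 and 5.95 CPM in control and at 0.965, 1.44 and 2.48 CPM in Vhl libraries. In control cells it rose with the drug by a log2 value of 1.80 ± 0.56 (3.48-fold, adjusted p = 0.0144, edgeR), and this call was lost without control DMSO A or without control AZD8330 C. In Vhl cells the change was 0.76 ± 0.59 with an interval of -0.53 to 2.06. Vhl against control under AZD8330 gave -1.41 ± 0.55 (95% interval -2.61 to -0.21, adjusted p = 0.0753, edgeR), which was called in 6 of 18 alternatives, DESeq2 among them. Another of the 6 left out Vhl DMSO A, which is in neither of the groups compared. The difference between the drug effects was -1.04 with an interval of -2.82 to 0.75, too wide to set it apart from 0 at these counts. Tmem98, a membrane protein that binds Myrf and limits its self-cleavage, was lower in Vhl cells (50.5 against 74.7 CPM under DMSO, 28.0 against 51.0 under AZD8330). It fell with the drug in both genotypes, by 0.55 ± 0.07 on the log2 scale in control (adjusted p = 2.79e-05) and by 0.85 ± 0.08 in Vhl cells (adjusted p = 1.15e-06, edgeR).

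Zeb2 (chr2:44983632-45117395, minus strand) rose with AZD8330 in both genotypes. It was at 57.0, 65.5 and 47.0 CPM in control and at 52.3, 69.0 and 74.5 CPM in Vhl libraries under DMSO, and at 83.5, 81.4 and 79.7 CPM in control and 97.4, 90.5 and 90.3 CPM in Vhl libraries under the drug. All 6 drug libraries lay above all 6 DMSO libraries. The log2 changes were 0.53 ± 0.12 in control (adjusted p = 0.00221) and 0.50 ± 0.12 in Vhl cells (adjusted p = 0.00363, edgeR), and their difference was -0.02 with an interval of -0.40 to 0.35. Zeb2os, the antisense gene that shares 653 exonic bases with Zeb2, rose as well, from 3.48 to 7.60 CPM in control (log2 1.12 ± 0.17) and from 4.76 to 9.42 CPM in Vhl cells (0.98 ± 0.17). Its part in the counts of Zeb2 was not tested. The edit gave Zeb2 a log2 difference of 0.21 ± 0.12 under DMSO and 0.19 ± 0.12 under AZD8330, neither of which was called.

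Olig1 (chr16:91269772-91271933) and Olig2 (chr16:91225457-91228677), neighbours on the plus strand, fell slightly with AZD8330. Olig2 was at 1293, 1307 and 1375 CPM in control libraries under DMSO and at 1141, 1137 and 1123 CPM under the drug. In Vhl libraries it was at 1490, 1511 and 1483 CPM under DMSO and at 1327, 1274 and 1326 CPM under the drug. The drug groups lay below the DMSO groups of the same genotype, by a log2 change of -0.23 ± 0.03 in control (adjusted p = 1.61e-05) and -0.19 ± 0.03 in Vhl cells (adjusted p = 9.45e-05, edgeR). Olig1 fell by 0.13 ± 0.04 in control (from 3135 to 2859 CPM, adjusted p = 0.00581) and by 0.11 ± 0.04 in Vhl cells (from 3283 to 3035 CPM, adjusted p = 0.0177, edgeR). Both Olig1 calls depended on single choices: in control cells the call was lost with total-count scaling and without control AZD8330 B, and in Vhl cells without Vhl DMSO B, Vhl AZD8330 B or Vhl AZD8330 C. By size of change these were among the least responsive genes, with 74.6% of genes changing at least as much as Olig2 and 84.4% at least as much as Olig1 in control cells.

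In Vhl against control cells, 3 of the 7 members rose and 0 fell under DMSO, where 13.8% of genes rose and 18.5% fell. Total-count scaling moved the share of rises among called genes from 42.6% (1851 against 2492) to 56.6% (2343 against 1794) under DMSO. The 3 members rose with either scaling, and Olig1 rose as well with total-count scaling. Under AZD8330, 3 members rose and 1 fell, where 16% of genes rose and 14% fell. The same 3 members, Olig2, Nkx2-2 and Nkx6-2, rose in both, and the member that fell was Zfp488, with a log2 difference of -1.02 ± 0.17 (2.03-fold, adjusted p = 0.000557, edgeR). The median over the 7 members was 0.18 under DMSO and 0.19 under AZD8330, against -0.03 and 0.01 for all genes.

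Nkx2-2 (chr2:147177546-147194243, minus strand) was higher with the edit, and its changes with the drug were not called. Under DMSO it was at 65.2, 57.5 and 56.7 CPM in control and 80.8, 77.6 and 80.5 CPM in Vhl libraries. Under AZD8330 it was at 52.9, 53.8 and 55.8 CPM in control and 81.7, 69.3 and 83.8 CPM in Vhl libraries. All 6 Vhl libraries lay above all 6 control libraries. The log2 difference was 0.41 ± 0.07 under DMSO (1.33-fold, adjusted p = 0.000817) and 0.53 ± 0.07 under AZD8330 (1.44-fold, adjusted p = 0.000112, edgeR). With the drug it changed by -0.14 in control (95% interval -0.30 to 0.02, adjusted p = 0.110, edgeR) and by -0.03 in Vhl cells (-0.18 to 0.13). The change in control cells was called in 2 of 18 alternatives. These were the fit without the filter and that without Vhl AZD8330 B, which is in neither group compared. Nkx2-2os, which shares 278 exonic bases on the opposite strand, had means between 3.14 and 5.30 CPM in the 4 groups, and its differences between Vhl and control cells were not called (log2 -0.15 ± 0.23 under DMSO and 0.05 ± 0.22 under AZD8330). For Olig2 the edit gave 0.17 ± 0.03 under DMSO (adjusted p = 0.000478) and 0.21 ± 0.03 under AZD8330 (adjusted p = 0.000117, edgeR), with Vhl libraries above control libraries in both. Olig1 differed by 0.07 (-0.01 to 0.14) and 0.09 (0.01 to 0.16), and neither was called in the main fit. The DMSO difference was called with total-count scaling and without control DMSO C. The AZD8330 difference was called only without control DMSO C, which is in neither of its groups.

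**Figure D3:**
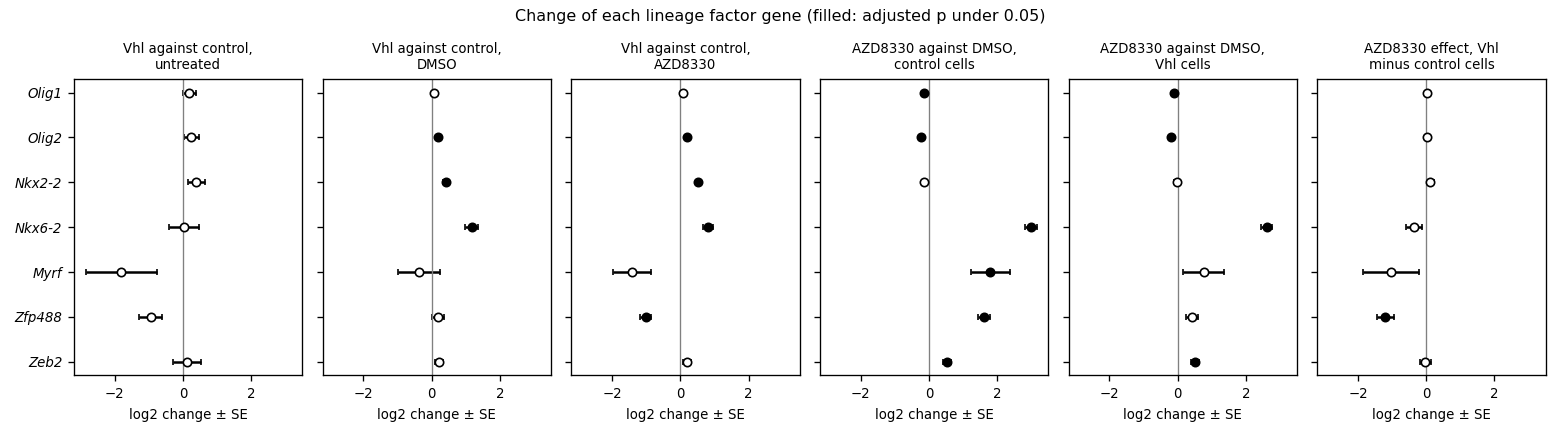
Log2 change with its SE (edgeR) for each of the 7 genes in the 6 comparisons; filled points have an adjusted p under 0.05. Nkx6-2 lies to the right in 4 of the drug experiment's panels, and in the last panel only Zfp488 is filled, at -1.20.

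The counts of the related lists that follow stand against the shares of all genes given above. With the drug these were 29.1% up and 31.7% down in control cells and 25.8% and 25.6% in Vhl cells. For Vhl against control cells they were 13.8% up and 18.5% down under DMSO, and 16% up and 14% down under AZD8330. Of 13 tested genes of a list of bHLH partners, Id proteins and Hes factors, 7 rose and 3 fell with AZD8330 in control cells and 8 rose and 2 fell in Vhl cells, with medians of 0.56 and 0.34. Id4, an Id protein that keeps bHLH factors from DNA, rose from 3.75 to 43.6 CPM in control (log2 3.53 ± 0.09, adjusted p = 3.80e-12) and from 6.68 to 49.1 CPM in Vhl cells (2.88 ± 0.08, adjusted p = 1.79e-11, edgeR). Hes5, a Notch effector that represses bHLH activators, rose from 14.5 to 132 CPM in control and from 47.8 to 172 CPM in Vhl cells. The E protein gene Tcf12 rose from 291 to 545 CPM in control cells (0.90 ± 0.05, adjusted p = 4.13e-09) and from 317 to 544 CPM in Vhl cells (0.78 ± 0.05, adjusted p = 2.84e-08, edgeR). Under DMSO, 6 genes of the list rose and 1 fell in Vhl against control cells, with Id2 at 89.4 against 33.0 CPM and Hes5 at 47.8 against 14.5 CPM. Under AZD8330, 4 rose and 1 fell.

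Of 13 tested other transcription factors of oligodendrocyte development, 4 rose and 4 fell with the drug in control cells and 5 rose and 5 fell in Vhl cells, shares near those of all genes in control cells. Nfix rose from 375 to 850 CPM in control and from 344 to 680 CPM in Vhl cells, and Creb3l2 fell from 242 to 114 CPM and from 177 to 70.6 CPM. Against control cells, Vhl cells had 5 rises and 3 falls under DMSO, with Myt1 at 94.7 against 22.2 CPM (log2 2.09 ± 0.22, adjusted p = 1.31e-05, edgeR), and 5 rises and 5 falls under AZD8330. Of 15 chromatin partners of the lineage factors, such as SWI/SNF and HDAC subunits, 4 rose and 7 fell with the drug in control cells and 2 rose and 9 fell in Vhl cells. Chd7, a chromatin remodeller that works with Sox10 in the oligodendrocyte lineage, rose from 234 to 433 CPM in control and from 255 to 348 CPM in Vhl cells. Vhl against control gave 0 rises and 3 falls under DMSO and 0 and 2 under AZD8330 among these 15. Of 13 tested genes of the Zeb family and the SMAD pathway that Zeb2 opposes, 4 rose and 4 fell in control and 5 rose and 3 fell in Vhl cells with the drug. Smad3 fell from 73.7 to 48.9 CPM in control and from 81.9 to 57.2 CPM in Vhl cells. Bmpr2 rose from 311 to 398 CPM in control and from 329 to 386 CPM in Vhl cells. In Vhl against control cells, 1 of these rose and 4 fell under DMSO and 1 rose and 1 fell under AZD8330.

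Of 21 myelin and late oligodendrocyte genes 14 were tested, and 9 of these rose and 0 fell with the drug in control cells and likewise in Vhl cells, with median log2 changes of 1.06 and 1.18. Gpr17, a receptor of committed progenitors, rose from 56.0 to 508 CPM in control and from 59.5 to 526 CPM in Vhl cells, and Cnp, a myelin enzyme gene, rose from 130 to 395 CPM and from 162 to 362 CPM. In Vhl against control cells 3 rose and 5 fell under DMSO and 1 rose and 6 fell under AZD8330, where Gjc3, a gap junction gene of oligodendrocytes, was at 109 against 199 CPM (log2 -0.87 ± 0.06, adjusted p = 2.66e-07, edgeR). Of 15 OPC genes, 11 rose and 3 fell with the drug in control and 11 rose and 1 fell in Vhl cells, and 10 rose and 3 fell in Vhl against control cells under DMSO and under AZD8330. The levels of other cell types' markers moved with the drug too: 9 neuron markers summed to 1017 to 1071 CPM in control DMSO libraries and 2126 to 2136 with AZD8330, and to 1484 to 1622 and 2517 to 2547 CPM in Vhl libraries. The 8 astrocyte markers summed to 1344 to 1375 CPM under DMSO and 2573 to 2678 CPM with AZD8330 in control libraries. In Vhl libraries they summed to 1625 to 1670 and 2415 to 2497 CPM. These markers moved unevenly. In control cells Gfap went from 4.12 to 131 CPM, Aqp4 from 3.31 to 47.9, Gja1 from 229 to 901 and S100b from 52.3 to 205. Aldoc went from 600 to 738 CPM, Slc1a2 from 442 to 552, Slc1a3 from 25.2 to 27.3 and Aldh1l1 from 2.68 to 7.75. Map2 made up most of the neuron sum (859 and 1734 CPM in control cells under DMSO and AZD8330), followed by Dcx (113 and 263 CPM), while Elavl4 was at 13.4 and 14.2 CPM and Snap25, Stmn2 and Syt1 had means of at most 2.73 CPM in the 4 groups. Only Syt1 of the neuron markers and none of the astrocyte markers were at 0 in any of these groups. The part of these cell types in the changes of the members was not tested.

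**Figure D4:**
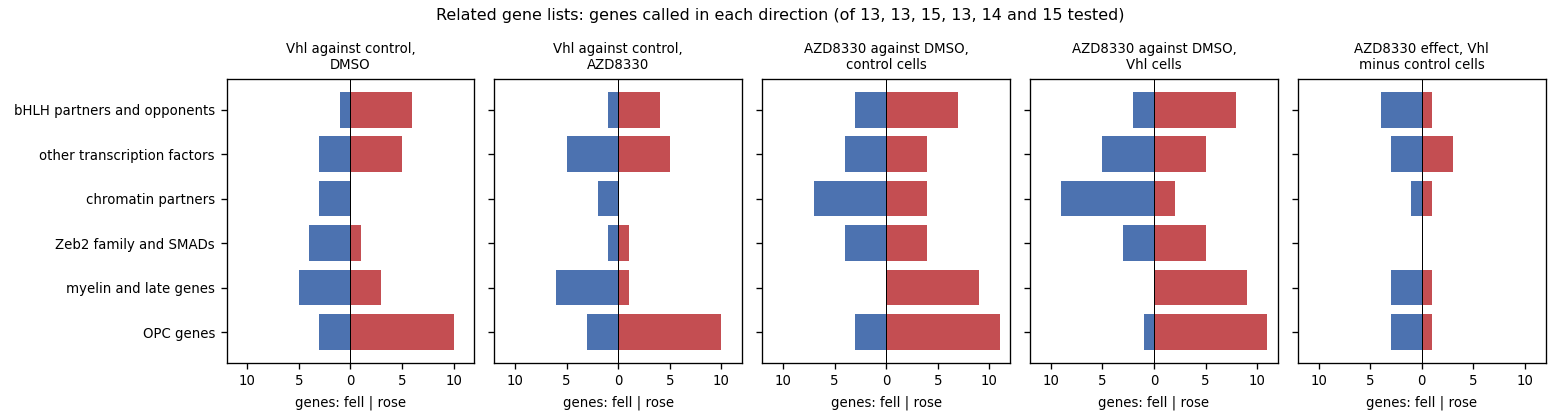
Number of genes that rose (red, right) and fell (blue, left) by edgeR in 6 gene lists around the lineage factors, for the 5 comparisons of the drug experiment. The myelin and late genes have 9 rises and no falls with AZD8330 in both genotypes.

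The genes whose profile over the 12 drug libraries was most like each member were found by Pearson correlation of log2(CPM + 1), for the 5 members with a mean of at least 10 CPM. The libraries form 4 groups, so the values describe mainly the pattern of 4 group means. Nkx6-2 was most like Epb41l4b and Slc1a1 (both r = 0.993); Slc1a1, a glutamate transporter gene, had means of 8.68, 14.7, 33.5 and 41.0 CPM in control DMSO, Vhl DMSO, control AZD8330 and Vhl AZD8330 cells. Olig2 was most like Lpin2 (r = 0.981) and Snrnp25 (0.977), Nkx2-2 like Elf4 (0.969) and Mrs2 (0.964), Zeb2 like Stxbp5 (0.958) and Tcf4 (0.946), and Olig1 like Rhbdd2 (0.937) and Pop1 (0.929). Tcf4, the gene of an E protein that pairs with Olig proteins, had means of 234 and 272 CPM under DMSO and 309 and 328 CPM under AZD8330 in control and Vhl cells. With Spearman's rank correlation, only Pop1 of these genes remained among the leading 2 of its member.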

How the data were processed

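Per the labels, RNA was extracted with TRIzol and sequenced by Novogene. The authors deposited 1 table for the 6 untreated and 1 for the 12 drug libraries. Per the submitters' processing notes, Salmon 0.14.1 and build mm10 were used; no source used here gives the library kit, strandedness or annotation. The tables are named as TPM, but the deposited values are estimated counts, since column totals differ between libraries; 57.7% and 58.8% of the values above 0 were whole within 0.001. They were rounded and tested with edgeR 4.0.16 (R 4.3.3) after TMM scaling and a filter at a mean of 1 CPM per gene. The quasi-likelihood test was used with Benjamini-Hochberg adjustment over all tested genes and a threshold of 0.05. In data simulated for the untreated comparison, 0 of 68 changes of 1.5-fold, 1 of 59 of 2-fold and 25 of 64 of 4-fold were recovered. For Vhl against control under DMSO these were 35 of 68, 41 of 63 and 57 of 66. The 2 tables were fitted separately; the 4 drug groups shared 1 fit. The 95% intervals use the total degrees of freedom of edgeR's test, residual and prior together. Exon lengths and positions (1-based) come from GENCODE M21. All members were named in every comparison, and up to 3 called genes with the smallest p per list and comparison, selected from these for the text. A gene that this rule also gave is not reported here. Members and lists were chosen with earlier results of these data known. Alternatives were DESeq2 1.42.0, limma 3.58.1 on log2(CPM + 1), total-count scaling, no filter, a replicate block, fits of 2 groups, and leaving out libraries. The authors' mean columns were not used: the column named VHL equals the mean of control B, control C and Vhl A in all 54279 gene entries.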

Additional observations from a re-analysis of the deposited data

Results flagged for a closer look

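The effect of AZD8330 differed between Vhl and control cells, by edgeR's test of the difference itself, for 1 of the 7 lineage factor genes. Over all genes, 7.81% had a called positive and 4.96% a called negative difference. The 20 further genes named here were picked by smallest p from called genes of the related lists and the checks of drug and edit. Positive and negative calls numbered 1 and 4 of 13 bHLH genes and 3 and 3 of 13 other transcription factors. They numbered 1 and 1 of 15 chromatin partners and 1 and 3 of 14 myelin and late genes. OPC genes had 1 and 3 of 15, ERK output genes 4 and 0 of 13, and HIF targets 3 and 1 of 6. Of 13 Zeb and SMAD genes 0 were called. Values below are the log2 change in Vhl cells minus that in control cells. Zfp488 had a log2 difference of -1.20. The targeted gene, Vhl, had a called difference as well, at -0.27. Among bHLH opponents, Hes5 had -1.34, Id2 -0.88 and Id1 1.03. Among other transcription factors, Klf6 had 0.66, Nfib -0.30 and Nfix -0.20. Among chromatin partners, Chd7 had -0.44 and Smarca4 0.22. Among myelin and late genes, Cnp had -0.44, Bcas1 -0.59 and Gjc3 0.48. Among OPC genes, Cacng4 had 0.60, Tnr -0.83 and Lhfpl3 -0.50. Among genes of ERK output, Dusp6 had 0.76, Etv4 0.59 and Spry1 0.57, and among HIF targets, Egln3 had 0.83, Slc2a1 0.32 and Bnip3 -0.37. Several genes with a negative difference were already higher in Vhl than in control cells under DMSO. They include Hes5 (47.8 against 14.5 CPM), Id2 (89.4 against 33.0), Tnr (85.7 against 35.5) and Lhfpl3 (200 against 108). Cnp (162 against 130 CPM), Nfib (389 against 364) and Bnip3 (650 against 19.7) were higher as well, while Nfix was lower (344 against 375). Egln3 and Slc2a1, with positive differences, were also higher there. Zfp488 was at 6.32 against 5.60 CPM with overlapping libraries. The part of these levels in the differences was not tested.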

How the results depend on the processing

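Of the 42 log2 changes of the 7 genes, direction and call were kept in 40 with DESeq2, 41 with limma, 39 without the filter on low counts, 38 with total-count scaling, 41 with the replicate block, 26 of 28 in fits of the 2 groups compared and 432 of 462 with 1 library left out. The calls for Olig2, Nkx2-2 and Nkx6-2 in Vhl against control cells under DMSO and AZD8330 held in all 18 alternatives of each. Those for Nkx6-2, Zeb2 and Olig2 with the drug held in all 18 as well. These 18, like the fits behind the 462 values above, include each of the 12 drug libraries left out in turn. For a comparison of 2 groups, some of those fits dropped a library of neither group. Such fits change mainly the shared estimate of spread and test a call less. The untreated comparison was the least stable: 2 genes were called, against 355 with DESeq2, 143 without the filter, 4 with limma, 0 with the replicate block, 606 without both A libraries and 0 to 439 with 1 library left out, and 0 of the 7 members in each. The cause was not tested. Over all tested genes, deviations of libraries with the same letter correlated at -0.08 to 0.02 in the untreated and -0.04 to 0.05 in the drug experiment. Untreated pairs with unlike letters reached -0.15 and 0.18. With 3 libraries per group, these values do not show whether a letter marks a shared culture or batch. Sox10 was higher in both untreated A libraries than in B and C of the same group. The replicate block turned no direction and added 1 member call, Myrf in Vhl against control cells under AZD8330 (-1.43). Directions turned only for changes that were not called. In untreated cells Nkx6-2 gave -0.00245 without the filter, -0.11 without both A libraries and -0.31 to 0.24 with 1 library left out. Myrf gave 0.48 without both A libraries and -2.32 to 0.42 with 1 left out, and Zeb2 -0.35 to 0.45. With 1 library left out, Vhl against control under DMSO ranged from -0.011 to 0.35 for Zfp488 and from -0.86 to 0.11 for Myrf, and AZD8330 in Vhl cells from -0.11 to 0.056 for Nkx2-2. The difference of drug effects was -0.00957 for Olig1 with DESeq2 and -0.041 with total-count scaling, and -0.027 for Olig2 with total-count scaling. With 1 library left out it ranged from -0.087 to 0.045 for Olig1, -0.064 to 0.052 for Olig2, -0.00281 to 0.20 for Nkx2-2 and -0.16 to 0.092 for Zeb2. Depth limits Myrf most, with counts down to 3.40. A fit without 1 library leaves 2 in its group, which are assumed to vary like the others.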
